A study of Mus musculus with 60 samples.

Results

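Genes for 10 heat shock proteins and chaperones were followed in mouse microglia from late gestation to adulthood, and in adults given lipopolysaccharide (LPS, part of the outer membrane of bacteria, which triggers inflammation). The genes, of 22869 gene symbols in the count table, were taken by name: Hspa1a, Hspa1b, Hspb1, Hsph1, Hspe1, Hspd1, Dnajb1, Hsp90aa1, Hspa8 and Hspa5. The study compared the sexes across development and after LPS. All 60 libraries came from mice of strain C57BL/6N and were labelled as microglia, the resident macrophages of the brain. Without treatment there were 3 female and 4 male libraries from embryonic day 18 (E18), 4 of each sex at postnatal day 4 (P4) and 10 of each sex at P14. At P60 there were 7 female and 5 male libraries after saline, and 6 female and 7 male libraries after LPS. No transgene or deletion is named in the labels. The sources used here do not give the dose and route of LPS, the interval before sampling or the way microglia were isolated.

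Chaperones bind unfolded or newly made proteins and keep them from clumping. Proteins of the HSP70 family do this in cycles of ATP hydrolysis that HSP40 (J-domain) partners start and that nucleotide exchange factors such as HSP110 end. HSP90 finishes the folding of kinases and steroid receptors, small heat shock proteins hold unfolded clients without ATP, and a chaperonin chamber folds proteins inside mitochondria. Heat or protein damage releases heat shock factor 1 (HSF1), which binds heat shock elements, arrays of the unit GAA in alternating orientation, and raises the inducible members. Protein stress in the endoplasmic reticulum (ER) acts through another route, the unfolded protein response, on Hspa5.

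Promoter stretches are shown because they divide the members by the element they carry. The search covered the 250 bases before each gene start in the RefSeq promoter table (build GRCm38.p6), on both strands, and 8 of the 10 members were in that table. Hspa8 and Hsp90aa1 were not. Each line below runs 5′ to 3′ on the gene's strand, and capitals mark the match.
Hspe1: ggtccgTTCTAGAACCTTCCGGAAggcccc
Hspd1: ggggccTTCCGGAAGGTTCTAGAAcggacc
Hspa1a: gaaactgctgGAAGATTCctggccccaa
Hspa1b: gaaactgctgGAAGATTCctggccccaa
Hsph1: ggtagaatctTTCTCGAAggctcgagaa
Hspb1: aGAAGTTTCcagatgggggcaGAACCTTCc
Hspa5: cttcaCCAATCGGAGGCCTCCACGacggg

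The Hspe1 and Hspd1 lines are one stretch read from both strands, chr1:55088053-55088082, since these genes start back to back. It lies 95 to 66 bases before the Hspe1 start and 150 to 121 before a start of Hspd1, and exon 1 of the annotated transcript Hspd1-202 covers it (GENCODE vM21). It holds matches to the element of 3 units, GAANNTTCNNGAA, which 0.466% of the 32851 promoter windows in the table carried on either strand. The window of another Hspd1 start held no match. The Hspa1a stretch at chr17:34972243-34972270 and the Hspa1b stretch at chr17:34959325-34959352, both on the minus strand and 114 to 87 bases before the start, had the same letters. They hold the shorter form of 2 units, GAANNTTC or TTCNNGAA, which 12.8% of all windows carried and which overlaps the longer form. Hsph1 (chr5:149636352-149636379, minus strand, 43 to 16 bases before a start) had 1 such match, and Hspb1 (chr5:135887801-135887830, plus strand, 118 to 89 bases before the start) had 2. The Hsph1 stretch overlaps exon 1 of the annotated transcript Hsph1-206, and the Hspb1, Hspa1a and Hspa1b stretches overlap no annotated exon. Hspa5 (chr2:34772020-34772048, plus strand, 70 to 42 bases before the start, within exon 1 of the transcript Hspa5-201) had the ER stress element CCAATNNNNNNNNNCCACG, found in 0.113% of windows. None of these elements was found in either Dnajb1 window. Whether a factor was bound at any of these places was not measured.

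Libraries held 802016 to 3497454 counts (median 1907007.5), and levels are given as CPM, each gene's count scaled to the library total. Microglial markers were present throughout, with a summed level of 10 genes of 3296 to 6478 CPM at E18 and 22907 to 47394 CPM at P60 with saline. Neuronal markers went the other way, from 611 to 2886 CPM at E18 to 34.5 to 179.8 CPM at P4. In 3 libraries the choroid plexus transcript Ttr took more than 10% of counts: male E18 replicates 3 and 4 and female P60 saline replicate 6. Title and sex label disagreed in 10 libraries, and the title was used. In all of these but male E18 replicate 4, sex-linked transcripts went with the title. Those titled male had Xist at 3.753 to 27.55 CPM and 440 to 889 counts of Y-linked genes. Those titled female had Xist at 1091 to 3749 CPM and 0 to 3 such counts. Male E18 replicate 4, whose sex label was female, had no counts of Y-linked genes. Its Xist, 132.2 CPM, lay between the levels of the other libraries titled male and those titled female. Any male value at E18 holds that library, which was male by title only. Tube names carry a date, called the tube date here. No tube date held more than 1 stage or both treatments, so date cannot be told apart from stage or from LPS. In such bulk samples fewer cells of a type and less RNA per cell cannot be told apart. Whether libraries came from separate animals is not stated, so p-values measure only the spread between these samples, which may be technical.

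Per kilobase of transcript, the constitutive chaperones led at every stage. Hspa5, the HSP70 of the ER also called BiP, stood at 366 ± 106 CPM per kilobase at E18 (SD, n = 7) and 836 ± 151 with saline at P60 (n = 12). Hspa8, the constitutive HSP70 of the cytosol, stood at 314 ± 50.4 and 515 ± 122 CPM per kilobase. Their intervals of 1 SD overlapped at E18 and did not at P60. The stress-inducible HSP70 pair changed place most. On the same scale Hspa1a rose in rank from the eighth to the third of the 10 and Hspa1b from the tenth to the fourth, from 14.3 ± 10.4 to 301 ± 124 and from 11.9 ± 9.99 to 300.5 ± 126. These neighbours could not be separated from each other, and reads of this near-identical pair may have been divided between them in the authors' counting. At P60 the small heat shock protein gene Hspb1 (77.1 ± 19.1) and the mitochondrial chaperonin gene Hspd1 (60.5 ± 15.6) were the lowest of the 10 per kilobase, within 1 SD of each other.

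**Figure D1:**
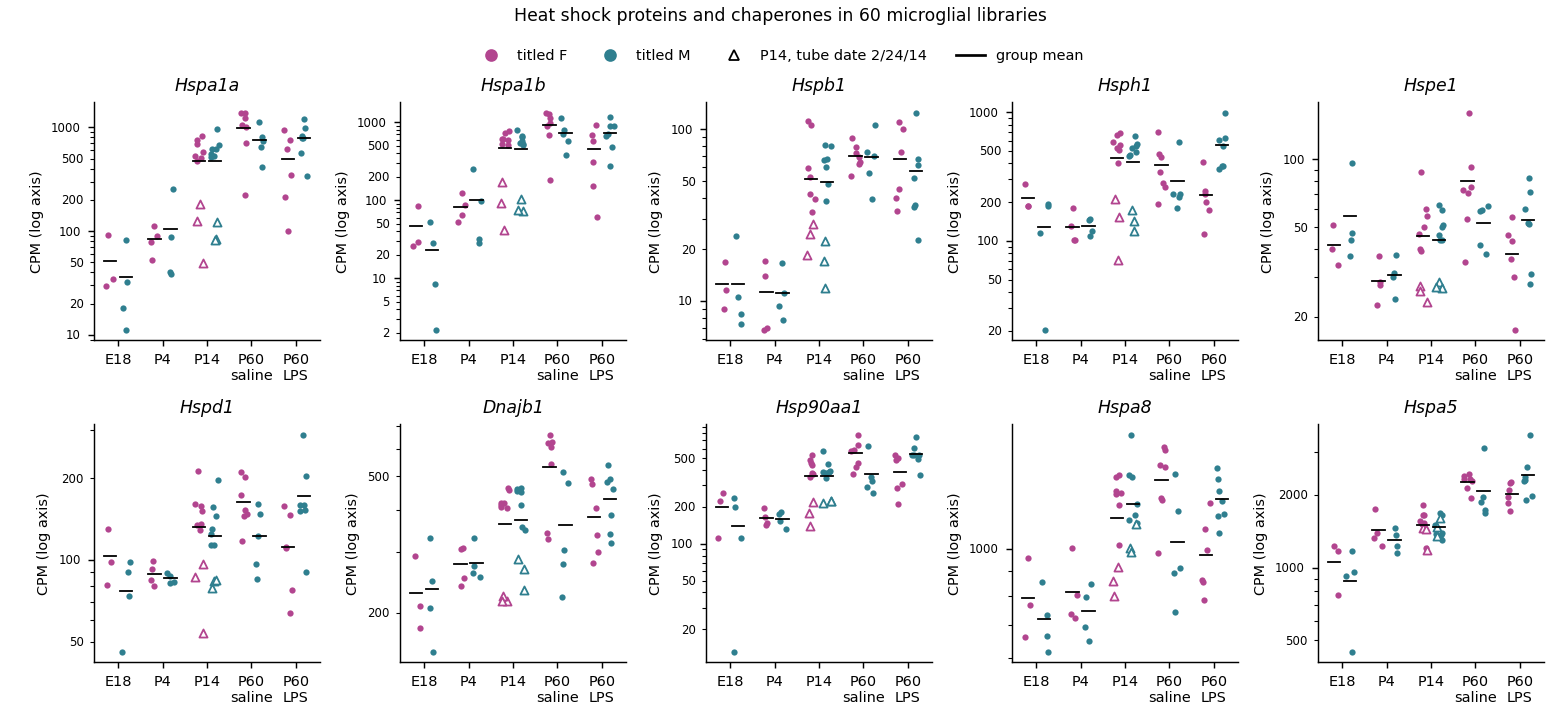
Level in CPM (log axis) of each of the 10 genes in each of 60 libraries, by stage and treatment and by sex in the title, with group means as bars and the P14 libraries of tube date 2/24/14 as open triangles. Hspa1a runs from 11.2 to 90.7 CPM at E18 and from 221 to 1381 CPM at P60 with saline, and the triangles lie below the other P14 libraries in 8 of the 10 genes.

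Between E18 and P60 with saline all 10 genes rose (edgeR quasi-likelihood test with Benjamini-Hochberg adjustment over 13853 genes, threshold 0.05), where 31.4% of all tested genes did. Hspa1a ran from 11.2 CPM through a median of 32.2 to 90.7 CPM in the 7 E18 libraries, and from 221 through 906 to 1381 CPM in the 12 saline libraries. Every saline library was above every E18 library. The log2 fold change was 4.73 ± 0.60 (SE), a 26.5-fold rise. Hspa1b, its twin gene, also had no overlap and gave 5.06 ± 0.65. Hspb1, which encodes the ATP-independent chaperone HSP27, had E18 levels of 7.30 to 23.8 CPM and saline levels of 39.3 to 106 CPM, again with no overlap, and rose by 2.85 ± 0.36. Hspa5 was the last of the 4 members without overlap, with a log2 fold change of 1.55 ± 0.14. Over all genes 5.98% lay higher with no overlap between these stages. The other 6 members rose by 0.71 to 1.87 on the log2 scale, with Hsp90aa1, the stress-inducible cytosolic HSP90, at 1.87 ± 0.29 and Hspe1, the lid of the mitochondrial chaperonin, at 0.71 ± 0.25. Hspe1 was not called with DESeq2 size factors (0.52, adjusted p = 0.0728) or library totals (0.41, adjusted p = 0.114), nor without female E18 replicate 1, male E18 replicate 3 or female P60 saline replicate 6 (0.51 to 0.59).

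The first step was from E18 to P4. Hspa1a, Hspa1b and Hspa5 rose and Hspe1 fell, where 25.5% of all genes rose and 22.7% fell. Hspa5 went from 449 to 1227 CPM (median 963) at E18 to 1149 to 1755 CPM (median 1347) at P4. Its lowest E18 value was that of male E18 replicate 4, a library of high Ttr. Its log2 fold change was 0.60 ± 0.15 (edgeR adjusted p = 0.000831). Hspa1a ran from 38.9 through 83.0 to 257 CPM at P4 and overlapped its E18 range, with a log2 fold change of 1.26 ± 0.53 (adjusted p = 0.0444). Leaving out 1 library ended the Hspa1a call in 25 of 47 cases, with the lowest value without male P4 replicate 4 (0.75, adjusted p = 0.233). That of Hspa1b (log2 fold change 1.62 ± 0.57) ended without female E18 replicate 1 or 2, male E18 replicate 3 or 4 or male P4 replicate 4 (1.11 to 1.41, adjusted p = 0.051 to 0.101). Hspb1 gave -0.05 ± 0.37 and Hspd1, the barrel of the mitochondrial chaperonin, gave 0.07 ± 0.19, neither called. The fall of Hspe1 by 0.69 ± 0.27 on the log2 scale was not called without male E18 replicate 4, its highest E18 library at 96.4 CPM (-0.42, adjusted p = 0.16), nor without female E18 replicate 2, female P4 replicate 3 or male P4 replicate 2 (-0.67 to -0.64). With the replicate number as a block (same-numbered libraries of these stages deviated together in females but not in males), Hspa5 and Hspe1 were called, and Hspa1a (0.99, adjusted p = 0.0982) and Hspa1b (1.31, adjusted p = 0.0566) were not. Without the 3 libraries of high Ttr, Hspa5 alone was called (log2 fold change 0.54 ± 0.15), and Hspa1a stood at 0.90 ± 0.58 (adjusted p = 0.215). Over this step all 10 microglial markers rose and the 8 neuronal markers tested fell, and their part in the members' changes was not tested. Genes of the cytosolic chaperonin TRiC and its partner prefoldin, which fold actin and tubulin, fell in 13 of 13 cases, with Cct5 at -0.80 ± 0.12.

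From P4 to P14 all 10 members rose, where 20.6% of all genes did. Their median log2 fold change was 1.16, and that of all genes -0.01. By edgeR 2856 of all genes rose and 2888 fell with TMM scaling, 2184 and 3634 with DESeq2 size factors (median -0.12), and 1376 and 5175 with library totals (median -0.30), and the 10 members rose under each except Hspa5 with library totals, which gave a positive change that was not called. The largest estimates were those of Hspa1a, Hspa1b, Hspb1 and Hsph1. Hspa1a ran from 48.8 through 532 to 964 CPM in the 20 P14 libraries and rose 6.06-fold over P4 (log2 fold change 2.60 ± 0.47, adjusted p = 1.8e-05). Hspa1b rose by 2.59 ± 0.50 on the log2 scale. Hspb1 ran from 6.81 through 10.2 to 17.1 CPM at P4 and from 11.8 through 45.3 to 112 CPM at P14, and it rose by 2.40 ± 0.31 (adjusted p = 4.09e-08). Its groups overlapped only at their edges. Hsph1, the HSP110 that releases nucleotide from HSP70, ran from 101 through 125 to 179 CPM at P4 and from 70.9 through 499 to 691 CPM at P14, with a log2 fold change of 1.99 ± 0.33. Here 1 P14 library, female replicate 1, lay below the whole P4 range, and all others lay in it or above it. Hsp90aa1 rose by 1.42 ± 0.25, Hspa8 by 0.90 ± 0.14, Hspe1 by 0.84 ± 0.22 and Hspd1 by 0.82 ± 0.16. Dnajb1, the J-domain partner of the inducible HSP70, rose by 0.69 ± 0.19. Hspa5 moved least, by 0.41 ± 0.12 (adjusted p = 0.00447).

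The levels of 4 further members by stage were as follows. Hspa8 ran from 617 through 733 to 956 CPM at E18, from 647 through 767 to 1005 CPM at P4, from 802 through 1199.7 to 1705 CPM at P14 and from 743 through 1260.5 to 1614 CPM with saline at P60. Most P14 libraries thus lay above the P4 range. Dnajb1 ran from 154 through 209 to 330.1 CPM, from 240.0 through 267 to 331 CPM, from 216 through 409 to 463 CPM and from 222 through 497 to 662 CPM over the same 4 groups, which overlapped throughout. Hspd1 ran from 46.0 through 90.1 to 130.2 CPM, from 80.0 through 85.8 to 99.3 CPM, from 53.9 through 129 to 213 CPM and from 85.3 through 147 to 209.8 CPM. Its P4 libraries were the most alike, within 80.0 to 99.3 CPM. Hsp90aa1 ran from 13.1 through 201 to 261 CPM at E18, with its lowest value in male E18 replicate 4, a library of high Ttr. It ran from 133 through 159 to 196 CPM at P4 and from 139.6 through 379.9 to 576 CPM at P14. With saline it ran from 259 through 444 to 777 CPM, and every such library was above every P4 library.

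At P14 the ranges followed the tube date. The date 2/24/14 was on 6 P14 libraries, 8 carried 2/28/14 and 6 carried 3/14/14, each with as many females as males. In the 6 libraries of 2/24/14 Hspa1a ran from 48.8 through 103 to 184 CPM. In the 8 of 2/28/14 it ran from 475 through 532 to 964 CPM, and in the 6 of 3/14/14 from 618 through 687 to 834 CPM. The first date lay wholly below both later dates. Hsph1 showed the same order, with 70.9 to 211 CPM on 2/24/14, 399.96 to 667 CPM on 2/28/14 and 461 to 691 CPM on 3/14/14. Hspe1 ran from 23.3 to 28.6 CPM, from 44.0 to 88.2 CPM and from 39.2 to 51.0 CPM. Hspb1 ran from 11.8 to 28.1 CPM, from 33.1 to 112 CPM and from 38.0 to 66.3 CPM. In all, 8 members (Hspa1a, Hspa1b, Hspb1, Hsph1, Hspe1, Hspd1, Dnajb1 and Hsp90aa1) were higher in each of the 14 later libraries than in any of the 6 of 2/24/14. Only 12 of the 13853 genes of the stage fit, 0.0866%, did so. The other 4, picked out after their values were seen, were Dnaja1, Bag3, Ccdc117 and AI467606. Dnaja1, another J-domain partner of HSP70, ran from 81.7 to 118 CPM on the first date and from 133 to 296 CPM later. Bag3, an exchange factor that hands HSP70 clients to autophagy, ran from 77.5 to 94.8 and from 99.2 to 190.4 CPM.

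A test over the 3 dates within P14, with sex as a term, called 9 of the 10 members, where it called 23.8% of 10989 genes. The exception was Hspa5 (edgeR adjusted p = 0.228), which ran from 1183 to 1600.2 CPM on 2/24/14, from 1210.0 to 1811 CPM on 2/28/14 and from 1369 to 1685 CPM on 3/14/14. The pairwise contrasts named here were added after the data were seen, and those against 2/24/14 share its libraries. Against 2/24/14, 8 members rose on 2/28/14, where 0.701% of genes rose, and 9 rose on 3/14/14, where 3.49% did. Hspa1a differed by 2.37 ± 0.21 and 2.75 ± 0.22 on the log2 scale, and Hsph1 by 1.82 ± 0.17 and 1.97 ± 0.18. Hspa8 differed by 0.33 ± 0.11 (adjusted p = 0.115) and by 0.57 ± 0.12 (adjusted p = 0.00343). Between both later dates no member was called by edgeR, although 28.5% of all genes were, and 2 members had an unadjusted p under 0.05. The lowest adjusted p was that of Hspa8, 0.0935.

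**Figure D2:**
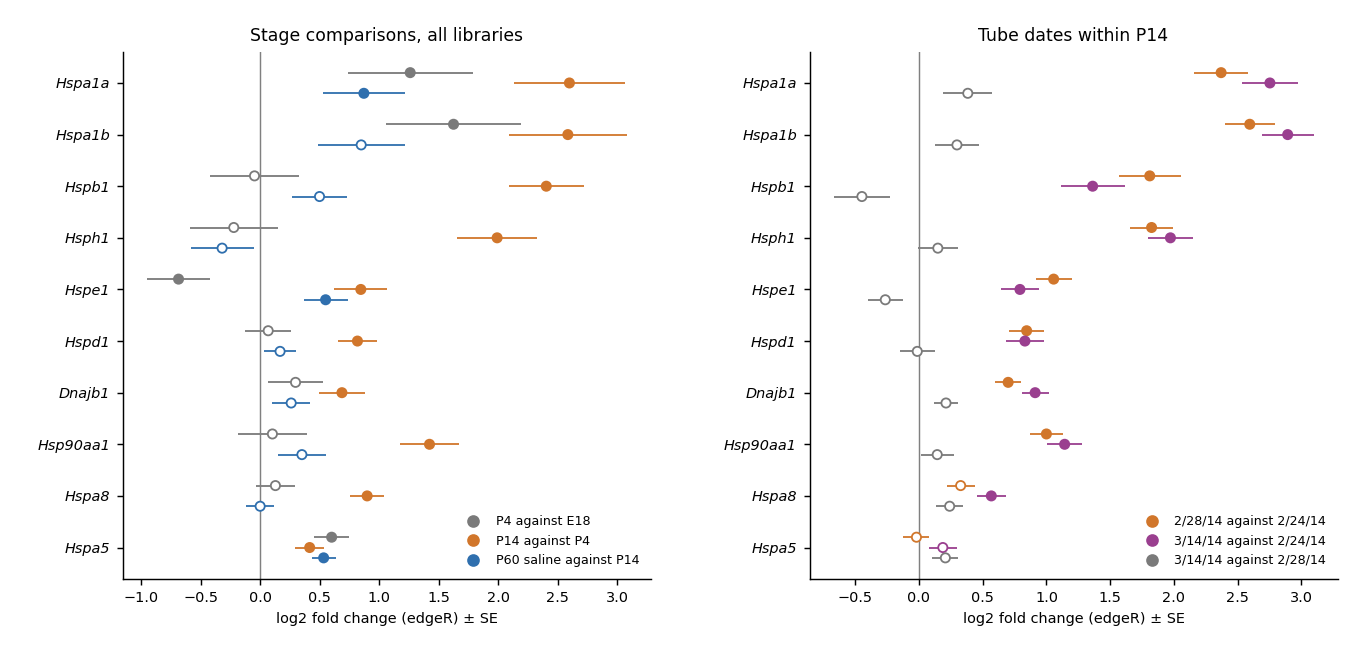
Log2 fold change from edgeR with its SE for each gene between stages (left, all libraries) and between tube dates within P14 (right), with filled points for an adjusted p under 0.05. All 10 genes are filled for P14 against P4 at left, and at right Hspa5 stays near 0 while Hspa1a reaches 2.37 and 2.75 against 2/24/14.

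Set against P4, the 3 dates gave different pictures. The libraries of 2/24/14 differed from P4 in 3 members: Hspb1 rose by 1.16 ± 0.28, Hspa8 by 0.61 ± 0.15 and Hspa5 by 0.39 ± 0.14, where 15.7% of genes rose. Their Hspa1a levels all lay inside the P4 range of 38.9 to 257 CPM, the top of which is male P4 replicate 4 alone. The next P4 library, female replicate 1, had 113 CPM. Female P14 replicates 2 and 3 (125.8 and 184 CPM) and male P14 replicate 3 (122.8 CPM) of 2/24/14 lay above it. Those of 2/28/14 were higher than P4 in 9 members, all but Hspa5, with 10.9% of genes higher. Those of 3/14/14 were higher in all 10, with 21.7% of genes higher. Hspa1a was 1.41-fold P4 on 2/24/14 (log2 0.50 ± 0.37, adjusted p = 0.334), 6.87-fold on 2/28/14 and 9.56-fold on 3/14/14. These comparisons share the P4 libraries. With the libraries of 2/24/14 left out, the P14 rise of Hspa1a over P4 was 2.98 ± 0.35 on the log2 scale and all 10 members were again called.

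Related chaperone and stress genes were compared between the same dates. On 2/28/14 against 2/24/14, 2 of 18 further HSP40 genes rose, Dnaja1 by 0.83 ± 0.14 and Dnaja4 by 0.61 ± 0.13. Of 21 HSP70 and HSP90 co-chaperones only Bag3 rose (0.63 ± 0.12), and of 13 TRiC and prefoldin genes Pfdn4 and Pfdn2 rose. None of 26 ER chaperone and unfolded protein response genes, 10 other HSP70 genes or 3 other HSP90 genes was called in this contrast. Among 11 further HSF1 targets, a list that shares Bag3 and Chordc1 with the co-chaperones, the single call was Bag3. Of 23 immediate early genes, transcription factors and feedback genes that respond within minutes to many stimuli, none rose and 5 fell, with Egr2 at -0.96 ± 0.17. On 3/14/14 against 2/24/14, in contrast, 12 of these 23 rose and 1 fell, with Jun at 1.06 ± 0.13 and Fos at 1.04 ± 0.13. In that contrast 5 of the 11 HSF1 targets rose, Dnaja1 rose by 0.71 ± 0.14 and Bag3 by 0.94 ± 0.13. The cytosolic HSP90 gene Hsp90ab1 rose by 0.54 ± 0.10.

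Markers of other cells were summed by date. The sum of 9 endothelial markers was 1213 to 1822 CPM on 2/24/14, 1444 to 2870 CPM on 2/28/14 and 926 to 1139 CPM on 3/14/14. That of the neuronal markers was 19.6 to 67.4, 42.9 to 211 and 8.50 to 25.3 CPM, with Nefl at 0 in all libraries of 2/28/14. Microglial markers summed to 20629 to 30024, 15074 to 27255 and 29702 to 34355 CPM. The choroid plexus sum had a median of 34815 CPM on 2/24/14, 34202 CPM on 2/28/14 and 17484 CPM on 3/14/14. By median the first date had the highest choroid plexus sum and lay between the later dates in the other sums, and the part of these cells in the members' values was not tested.

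Related genes were counted over the whole P4 to P14 step, where 20.6% of all genes rose and 2888 of 13853 fell. Of the 11 further HSF1 targets, with Bag3 and Chordc1 counted here and among the co-chaperones, 10 rose, with a median log2 fold change of 1.24. Rgs2, an inhibitor of G protein signalling, stood at 1.88 ± 0.18. The collagen chaperone gene Serpinh1 fell by 0.67 ± 0.23. Of 18 HSP40 genes 8 rose and 2 fell, with Dnajb4 at 1.26 ± 0.15, and of 21 co-chaperones 6 rose and 2 fell, with Chordc1, which binds HSP90, at 0.53 ± 0.14. Hsp90ab1, the constitutive cytosolic HSP90, rose by 0.58 ± 0.14, and Hsf1 itself by 0.53 ± 0.15. Of 10 further HSP70 genes 2 rose and 1 fell. The shares of HSP70 genes and co-chaperones that rose lie near that of all genes. In the ER list, also near it, 7 of 27 rose and 2 fell, and the largest of the named rises was that of Ddit3, which encodes the stress factor CHOP, by 1.79 ± 0.17. All 10 microglial markers rose over the same step and all 9 astrocyte markers fell, and their part was not tested.

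From P14 to P60 with saline Hspa5, Hspa1a and Hspe1 rose, where 18.5% of all genes did, and no member fell. Hspa5 ran from 1183 through 1488 to 1811 CPM at P14 and from 1682 through 2208 to 3116 CPM at P60, with a log2 fold change of 0.53 ± 0.10 (edgeR adjusted p = 3.71e-05). Hspa1a rose by 0.87 ± 0.34 (adjusted p = 0.0362) and Hspe1 by 0.55 ± 0.19 (adjusted p = 0.0146). Without female saline replicate 1 or male saline replicate 1 or 2, Hspa1a was not called (0.75 to 0.85, adjusted p = 0.0531 to 0.083). Hspa1b, with 0.85 ± 0.37 (adjusted p = 0.056), and Hspb1, with 0.50 ± 0.23 (adjusted p = 0.0731), were just outside the threshold. Hspa8 gave -0.00 ± 0.12, with a 95% interval of -0.23 to 0.23. The members called differed with the P14 date. Against the P14 libraries of 2/24/14, 9 members rose, all but Hspa8, where 12% of genes did. Against those of 2/28/14 only Hspa5 rose (0.67 ± 0.12), where 13.5% did. Against those of 3/14/14 Hspa5 rose by 0.36 ± 0.13, where 14.7% did, and Hsph1 fell by 0.80 ± 0.25, where 18.1% fell. Hspa5 was thus higher at P60 against each of the 3 dates, by 0.36 to 0.67. With the 2/24/14 libraries left out, Hspa1a stood at 0.51 ± 0.27 (adjusted p = 0.131), and Hspa5 rose by 0.58 ± 0.11 while Hsph1 fell by 0.64 ± 0.20. This step shares its P14 libraries with the one before.

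Related genes were counted over the same step, where 18.5% of all genes rose and 3558 of 13853 fell. In the ER chaperone and unfolded protein response list 15 of 27 genes rose over P14 and 4 fell. The rises were led by Sdf2l1, a cofactor of the Hspa5 protein (1.24 ± 0.17), and Creld2 (0.92 ± 0.14), and Hsp90b1, the HSP90 of the ER, rose by 0.61 ± 0.12. The falls included Ddit3 (-1.32 ± 0.14) and Atf4 (-0.94 ± 0.13), transcription factors of the stress branch that slows translation. Of the 11 further HSF1 targets 7 fell and 1 rose, with the autophagy receptor gene Sqstm1 at -1.09 ± 0.13.

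In the mean of the sexes none of the 10 members was called for LPS by edgeR, over 10538 genes of which 14.4% were called. None of the 10 had an unadjusted p under 0.05, while 2752 of all genes did. DESeq2 also called 0 members, and limma-voom with sample weights called 3. The log2 fold changes ran from -0.45 ± 0.22 (Hspe1) to 0.17 ± 0.23 (Hsph1). For comparison, Mt2, a metallothionein gene that metals and glucocorticoids induce and that is listed among the HSF1 targets, rose by 4.58 ± 0.39.

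Within females Hspe1 fell and no other member was called. Its levels ran from 34.9 through 73.2 to 161 CPM in the 7 saline libraries and from 17.5 through 39.7 to 55.6 CPM in the 6 LPS libraries, which overlap between 34.9 and 55.6 CPM. The log2 fold change was -1.07 ± 0.31 (adjusted p = 0.0408), where 0.892% of genes fell. Leaving out 1 library ended this call in 13 of 25 cases (female saline replicates 1, 4, 5 and 6, female LPS replicates 2 to 6, male saline replicate 5 and male LPS replicates 1, 2 and 5). The value was then -1.11 to -0.75, the latter without female saline replicate 6 (adjusted p = 0.12), the library at 161 CPM and the one with high Ttr. The other alternatives gave adjusted p-values of 0.0218 to 0.321. Hspa1a ran from 221 through 1048 to 1381 CPM with saline and from 100.3 through 481 to 935 CPM with LPS in females (-0.98 ± 0.39, adjusted p = 0.203), and Hsph1 from 193 through 343 to 706 CPM and from 114 through 214 to 408 CPM (-0.73 ± 0.32, adjusted p = 0.258). All 10 estimates in females were below 0, with a median of -0.51 (all genes -0.006), in members that vary together within groups. Of the 10, 7 had an unadjusted p under 0.05, as did 1526 of all 10538 genes.

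Within males Hsph1 rose and no other member was called. The 5 saline libraries had 589, 219, 231, 232 and 181 CPM, and the 7 LPS libraries ran from 359 through 548 to 989 CPM. All saline values but that of replicate 1 lay below all LPS values. The log2 fold change was 1.06 ± 0.34 (adjusted p = 0.0263), where 11.9% of genes rose. Leaving out male LPS replicate 3 (989 CPM) gave 0.90 (adjusted p = 0.065), and leaving out male saline replicate 3, 4 or 5 gave 0.98 to 0.99 (adjusted p = 0.0571 to 0.0782), which ended the call. Without the saline libraries of tube date 4/3/14 the change was 0.89 ± 0.41 (adjusted p = 0.195). Hsp90aa1 in males had 635, 350, 259, 328 and 289 CPM with saline and 363 through 528 to 748 CPM with LPS, a log2 fold change of 0.66 ± 0.25 (adjusted p = 0.0601). Hspd1 gave 0.62 ± 0.24 (adjusted p = 0.0656). Without male saline replicate 1, edgeR also called Hsp90aa1 (0.955, adjusted p = 0.00632), Hspa5 (0.561, 0.021), Hspa8 (0.561, 0.0226) and Hspd1 (0.747, 0.0392). Leaving out some other single libraries also brought in Hsp90aa1, Hspd1 or Hspa8. Among related genes Dnaja1 rose by 0.92 ± 0.27 in males and Ptges3, the HSP90 co-chaperone p23, by 0.61 ± 0.20. None of the 18 HSP40 genes or 20 co-chaperones tested was called in females by edgeR. Of all 10538 genes 533 were called in females and 2054 in males, so fewer calls in females are not particular to these lists.

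The test of the difference itself, the LPS change in males minus that in females, called none of the 10 members by edgeR, against 0.883% of all genes. An unadjusted p under 0.05 was found for 6 members and for 2255 of all 10538 genes. Hsph1 gave 1.79 ± 0.46 (adjusted p = 0.054), Hspa8 0.89 ± 0.23 (0.0541), Hspd1 1.15 ± 0.33 (0.061) and Hsp90aa1 1.13 ± 0.34 (0.0717). These 4 were called by DESeq2, and also by edgeR with the tube date as a term, which gave Hsph1 1.77 ± 0.36 (adjusted p = 0.0124). limma-voom called 7. The sex difference among LPS libraries was largest for Hsph1, at 1.34 ± 0.32 (adjusted p = 0.0846), with 0.142% of genes called. By tube date, females had 229, 243 and 408 CPM of Hsph1 and males 380.2 and 384 CPM on 4/8/14. On 4/9/14 a single female had 199 CPM and males had 989, 630.3 and 605 CPM. On 4/10/14 females had 114 and 175 CPM and males 548 and 359 CPM. Males thus lay above females on the latter dates, and on 4/8/14 a female was highest. With the date as a term this difference was 1.23 ± 0.26 (adjusted p = 0.026). Hspb1 gave the smallest interaction, -0.11 ± 0.45, with a 95% interval of -0.99 to 0.77.

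**Figure D3:**
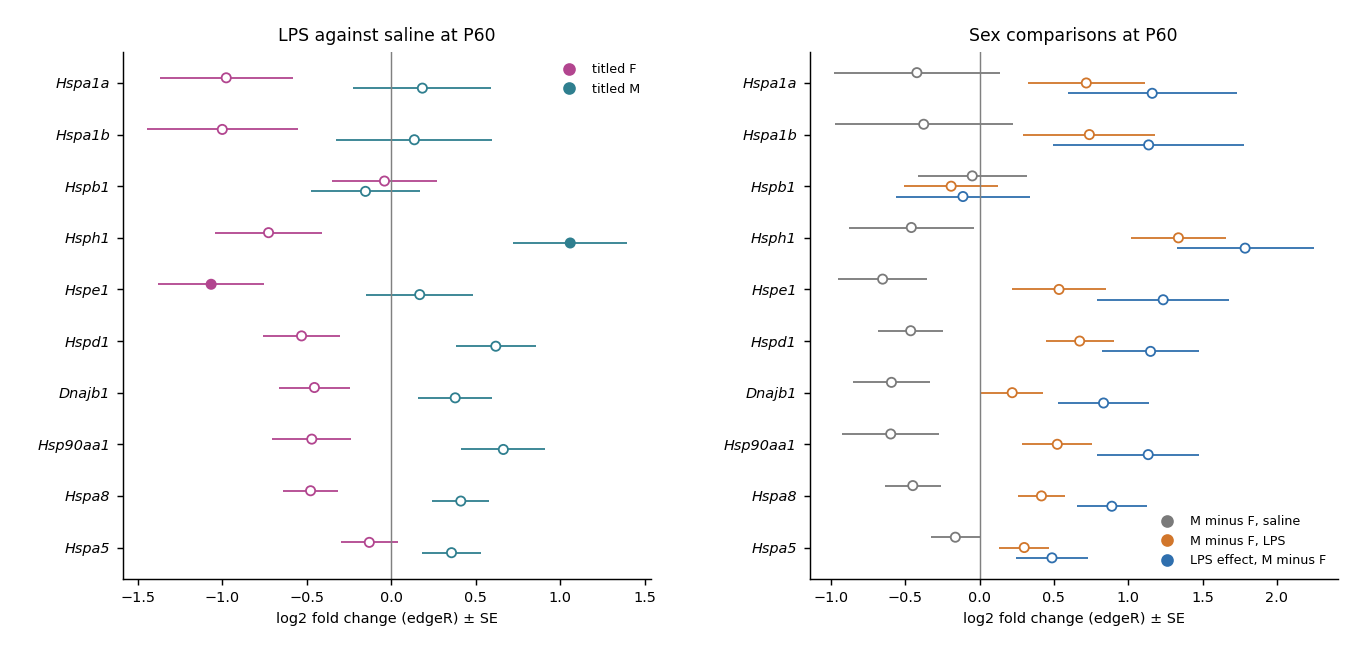
Log2 fold change from edgeR with its SE for LPS against saline at P60 in each sex (left), and for male minus female with saline, male minus female with LPS and the LPS change in males minus that in females (right), with filled points for an adjusted p under 0.05. Only Hspe1 in females (-1.07) and Hsph1 in males (1.06) are filled.

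Blood cell and vessel markers moved with LPS as well. Neutrophil markers summed to 17.5 to 324 CPM in female and 95.8 to 424 CPM in male saline libraries, and to 532 to 875 CPM and 366 to 5733 CPM after LPS. Of the 6 tested, 4 rose in females and 6 in males, and Elane was at 0 in every female and Mpo in every male LPS library. Endothelial markers ran from 646 to 2710 CPM and from 903 to 1494 CPM in females without and with LPS, and from 1143 to 2304 CPM and from 506 to 885 CPM in males, where 6 of 9 fell. Their part in the members' values was not tested.

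Without LPS no member was called between the sexes by edgeR at E18 (0.0722% of genes called), P4 (0.0433%), P14 (0.0433%) or P60 with saline (0.0433%). No member had an unadjusted p under 0.05 at E18, P4 or P14, and 4 did at P60: Dnajb1, Hspa8, Hspd1 and Hspe1. Of all 13853 genes 2602 did at E18, 46 at P4, 655 at P14 and 1340 at P60. DESeq2 called 0 at each stage and limma-voom called 1 at P60. All 10 estimates at P60 with saline were lower in males, by 0.05 to 0.65 on the log2 scale, with Hspe1 at -0.65 ± 0.30 (adjusted p = 0.487). Their median was -0.455 (all genes 0.0154), in members that vary together within groups. How many of all genes had lower estimates in males was not counted. At P14, with 10 libraries of each sex, male minus female was -0.08 ± 0.43 for Hspa1a (95% interval -0.92 to 0.75) and -0.06 ± 0.12 for Hspa5 (-0.30 to 0.19). The test of whether the sex difference changed over the 4 stages called 0 members and 0% of all genes by edgeR. One member, Hspe1, had an unadjusted p under 0.05 there, as did 1723 of all 13853 genes, and DESeq2 called 0 members.

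Tube dates at P60 were examined in the same way. Hspa1a averaged 1021 ± 293 CPM on 3/27/14 (n = 2), 1098 ± 272 on 3/31/14 (n = 6) and 522 ± 250.1 on 4/3/14 (n = 4) among saline libraries. Among LPS libraries it averaged 729 ± 226 on 4/8/14 (n = 5), 895 ± 247 on 4/9/14 (n = 4) and 305 ± 198 on 4/10/14 (n = 4). The last date of each treatment had the lowest values, in ranges that overlapped the others. On 4/3/14 the mean was below that of the other saline libraries in 9 of 10 members, and on 4/10/14 below that of the other LPS libraries in 10 of 10. These counts were not made over all genes, and the members vary together within groups, so they have no baseline here. The test over dates called 3 members among LPS libraries, Hspa1b (edgeR adjusted p = 0.0381), Hspa1a (0.0421) and Hspe1 (0.0471), where 1.2% of 9236 genes were called. No member was called when any of female LPS replicates 5 and 6 or male LPS replicates 1, 3, 4, 5 and 7 was left out (adjusted p of Hspa1b then 0.0572 to 0.119). The Hspe1 values of 4/10/14 were 17.5 and 29.97 CPM in females and 27.8 and 30.8 CPM in males. All were below the 36.0 to 82.9 CPM of the other 9 LPS libraries, and how many of all genes lay so was not counted. Without that date the fall of Hspe1 in females was -0.80 ± 0.31 (adjusted p = 0.271). Among saline libraries no member and 0% of 11235 genes were called by edgeR. An unadjusted p under 0.05 was found for 6 members and for 2674 of all genes, and DESeq2 and limma-voom each called 4 members. The choroid plexus sum was 64474 to 159269 CPM on 4/3/14 and 285 to 71217.5 CPM in the other saline libraries, ranges that meet at their edges, and its part was not tested. Hspa5, although within the counts of lower means above, was not lowest on the last date of either treatment. It averaged 2533 ± 824 (n = 2, the higher at 3116 CPM), 2107 ± 327 and 2125 ± 255 CPM on the saline dates. On 4/8/14, 4/9/14 and 4/10/14 it averaged 2064 ± 196, 2545 ± 766 and 2158 ± 203 CPM.

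**Figure D4:**
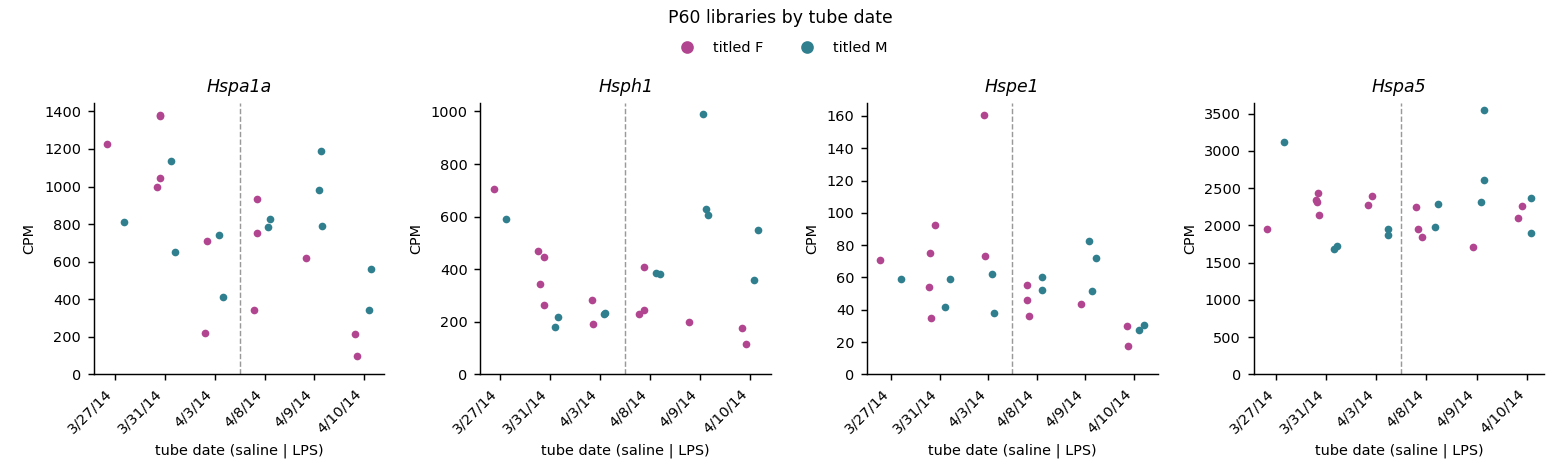
Level in CPM of Hspa1a, Hsph1, Hspe1 and Hspa5 in each P60 library by tube date, with saline dates left of the dashed line and LPS dates right of it, coloured by sex in the title. Hspa1a is lowest on 4/3/14 and 4/10/14, and the 4 Hspe1 values of 4/10/14 lie at 17.5 to 30.8 CPM, below the other LPS libraries.

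Members also varied together inside groups. Over the 60 libraries, with each group's mean removed, Pearson's r of log2 CPM ran from -0.015 to 0.97 over the 45 pairs, with a median of 0.571. Libraries share depth and tube date in this measure. With the mean of each tube date removed instead, the median was 0.307. The strongest pair was Hspa1a with Hspa1b (0.97, and 0.888 within dates), which may share reads. Hsph1 with Hsp90aa1 followed the same course at both levels, 0.882 and 0.843. Hspe1 with Hspd1, whose promoter windows share the stretch shown above, gave 0.601 and 0.339. Hspa5 stood apart from Hspe1 and Dnajb1, at -0.015 and -0.003 (-0.018 and -0.045 within dates). It was closest to Hsp90aa1 (0.636, and 0.805 within dates), followed by Hsph1 (0.503 and 0.649).

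**Figure D5:**
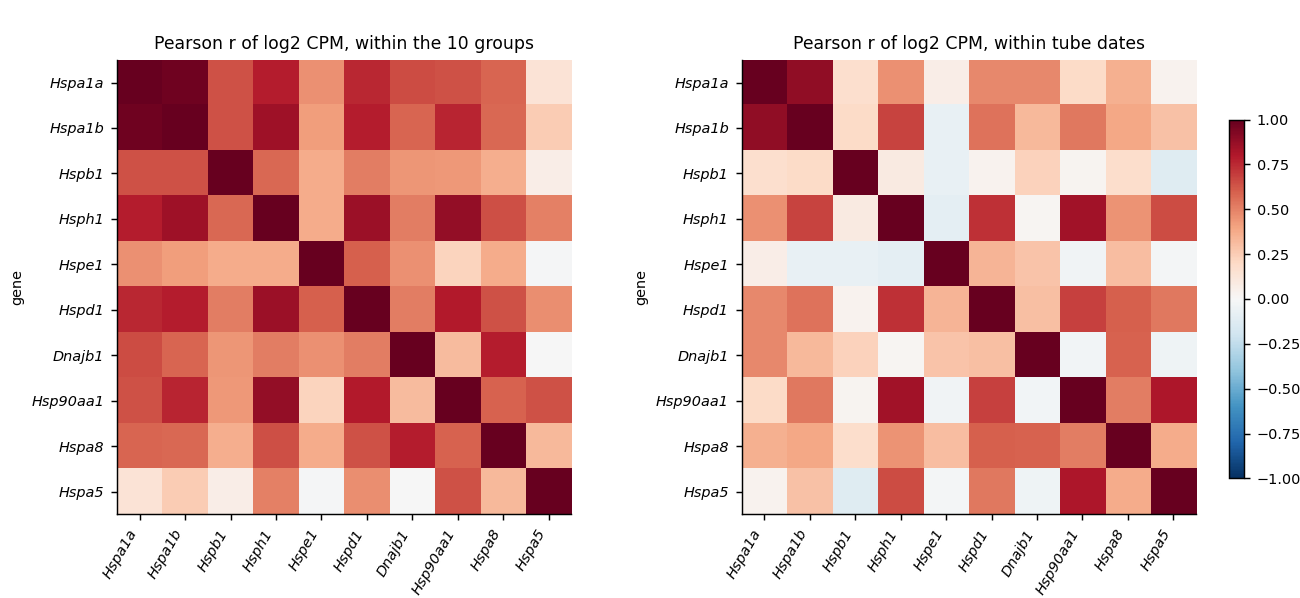
Pearson's r of log2 CPM for each pair of the 10 genes over 60 libraries after removing the mean of each of the 10 groups (left) or of each tube date (right), on a colour scale from -1 to 1. The median over pairs is 0.571 at left and 0.307 at right, and the rows of Hspb1 and Hspe1 are palest at right.

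Outside the 10, the 3 genes whose within-group pattern was most like each member were taken from 10144 compared. These are descriptions, over 60 libraries that share depth and tube date. For Hspa1a they were Dnaja1 (Pearson's r 0.69, Spearman's rho 0.674), Bag3 (0.653, 0.689) and Cebpg (0.597, 0.617). Hspa1b had the same 3 (0.729, 0.692 and 0.668 by r). Within tube dates r was lower, at 0.356, 0.449 and 0.299 for Hspa1a and 0.457, 0.58 and 0.496 for Hspa1b. Hsph1 was nearest to Hsp90ab1 (0.806, rho 0.833), Dnaja1 (0.796, 0.805) and Cebpg (0.686, 0.542). Hspd1 was nearest to Dnaja1 (0.855, rho 0.777), the HSP90 partner gene Chordc1 (0.666, 0.61) and Elavl4 (0.631, 0.573). Hsp90aa1 was nearest to Hsp90ab1 (0.846, rho 0.735), Xpo1 (0.826, 0.744) and Ppil4 (0.80, 0.653), and its r with Hsp90ab1 fell to 0.673 without male E18 replicate 4 and female P14 replicate 1. Hspa8 was nearest to Dnaja1 (0.738, rho 0.716), Bag3 (0.648, 0.75) and Hsp90ab1 (0.645, 0.827). Hspa5 was nearest to the ER chaperone genes Hsp90b1 (0.818, rho 0.748) and Pdia3 (0.797, 0.687) and to Gpbp1 (0.769, 0.719). Within tube dates these reached 0.904, 0.90 and 0.84. Within groups they were 0.728, 0.685 and 0.585 without male E18 replicate 4 and male P60 saline replicate 1. Hspe1 was nearest to the prefoldin gene Pfdn4 (0.667, rho 0.653), to Plac8 (0.636, 0.619), a gene on the monocyte list, and to Tmem128 (0.632, 0.594). Dnajb1 was nearest to Zfp622 (0.60, rho 0.545), Bag3 (0.57, 0.626) and Dnaja1 (0.564, 0.536), and Hspb1 to Sap25 (0.542, 0.566), Bag3 (0.539, 0.644) and Pak4 (0.536, 0.548). Within tube dates the r values of Dnajb1 were 0.361, 0.31 and 0.3, and those of Hspb1 were 0.556, 0.414 and 0.585.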

How the data were processed

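The authors deposited whole-number counts per transcript for 60 libraries of messenger RNA, with CASAVA 1.8.2, mm9 and edgeR named in the submitters' processing notes. The aligner and counter are not given in the sources used. Of 28644 rows, the row marked as best was used for 21988 symbols and the row with most counts for 881. CPM was computed over the 22869 symbols. Counts were tested with edgeR 4.0.16 (TMM, default filter, robust quasi-likelihood F test, two-sided, Benjamini-Hochberg, threshold 0.05). One fit held E18, P4, P14 and P60 saline (47 libraries, 8 groups), and another held P60 saline and LPS (25 libraries, 4 groups). Dates were tested within P14, P60 saline and P60 LPS with sex as a term. The fits were tested on simulated data. Alternatives were DESeq2 1.42.0, limma-voom (limma 3.58.1), other scalings, filters, rows, sex labels, blocks and libraries left out.

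At P4, female and male libraries of one number shared a tube date in 4 of 4 cases and their deviations correlated by 0.414 to 0.577. A fit with the replicate number as a block called no member between the sexes there or at P14.

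Median counts per library of a member ran from 59.5 (Hspb1) to 2561.5 (Hspa5), which sets the precision. Likeness used genes with a mean of at least 10 CPM with log2 CPM at prior count 2, and named the 3 closest. Related genes are named by the smallest p, up to 2 per list and direction, at a mean of at least 10 CPM. Members and lists were chosen with earlier results of these data known. Transcript lengths and exons are from GENCODE vM21 (GRCm38) and promoters from RefSeq GRCm38.p6, not the build of the counts.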

Additional observations from a re-analysis of the deposited data

Results flagged for a closer look

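A single library stood apart in 6 of 90 checks over members and groups of 4 to 10 libraries, by its gap to the nearest library relative to the range of the group. Chance flags about 1 in 20 groups. Male P60 saline replicate 1 gave 3 of the 6: Hsph1 at 589 CPM (others 181 to 232 CPM), Hsp90aa1 at 635 CPM (259 to 350 CPM) and Hspa5 at 3116 CPM (1682 to 1954 CPM). Male P60 LPS replicate 3 gave 2: Hsph1 at 989 CPM (359 to 630.3 CPM) and Hspa5 at 3551 CPM (1899.9 to 2606 CPM). Male E18 replicate 4, which had no Y-linked counts, had Hspe1 at 96.4 CPM (37.2 to 47.1 CPM).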

How the results depend on the processing

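Counts are members called of 10. For P14 against P4 the count stayed between 8 and 10 and for P60 saline against E18 between 9 and 10 under each alternative run, and it was 9 or 10 for tube dates within P14. Counts of 0 for the sexes at E18, P4 and P14 and for the change of the sex difference over stages stayed at 0. For P4 against E18 (4) the count was 2 with limma-voom and 1 without male E18 replicate 4 or without the 3 libraries of high Ttr. For P60 saline against P14 (3) it was 7 with limma-voom, 5 without male E18 replicate 4, 6 without the libraries of high Ttr and 5 without the saline libraries of 4/3/14. For LPS in females (1) it was 2 with DESeq2, 8 with limma-voom, 0 with sex as in the sex label, 0 without high Ttr, 2 without 4/3/14 and 0 without 4/10/14. For LPS in males (1) it was 3 with DESeq2, 4 with limma-voom, 3 with the row of most counts, 3 without high Ttr, 0 without 4/3/14 and 3 without 4/10/14. For the LPS change by sex (0) it was 4 with DESeq2, 7 with limma-voom, 1 with the row of most counts, 4 with the tube date as a term and 4 without high Ttr. For LPS in both sexes (0) limma-voom gave 3. For male against female it gave 1 with saline (0), and with LPS (0) DESeq2, the tube date as a term and leaving out 4/3/14 each gave 1. For tube dates within P60 saline (0) DESeq2 and limma-voom gave 4, no filter 2 and leaving out high Ttr 1. Within P60 LPS (3) library totals gave 1, and summed rows and the sex label 0. The causes of these shifts were not tested. Leaving out 1 library at a time gave 1 to 4 for P4 against E18, 2 to 5 for P60 saline against P14, 0 to 2 for LPS in females, 0 to 5 for LPS in males, 0 to 4 for the LPS change by sex, 0 to 1 for the sexes with LPS, 0 to 2 for saline dates and 0 to 3 for LPS dates.

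Same-numbered libraries deviated together between the sexes at P4 and between female E18 and P4 libraries (correlations 0.165 to 0.497, no shared date, each closest to its own number), but not in every pair of the other groups checked, male E18 and P4 included. At P14 same-numbered females and males shared a tube date in 10 of 10 cases, with correlations of -0.258 to 0.522. With the replicate number as a block the counts were 2 for P4 against E18, 8 for P60 saline against P14, 0 for LPS in females, 3 for LPS in males and 4 for the LPS change by sex. Under the block Hsph1 for P60 saline against P14 turned from -0.32 to 0.068, not called in either fit.

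Over 60 single-member results and 3034 alternatives, 2792 kept direction and call, 91 lost the call, 150 gained it and 1 changed sign. Another 70 results were called neither by the main test nor by any alternative. For these, 263 of 3676 alternatives changed sign, among them those of Hspd1 and Hsp90aa1 for P4 against E18 and Hspa8 for P60 saline against P14. Members with few counts, Hspb1 (median 59.5 per library) and Hspe1 (69), are limited most by depth. Date with stage or LPS cannot be told apart.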
